A study of Mus musculus with 17 samples.

Results

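The 2550 regions described here are places where BRG1 was found in mouse spermatogenic cells at both ages studied and where histone acetylation was present at the younger age. They were chosen by a rule on the deposited region lists: a BRG1 peak of postnatal day 12 (P12) on chromosomes 1 to 19 had to overlap, by at least 1 bp, both a BRG1 peak of postnatal day 18 (P18) and a common H3K27ac region. They make up 13.9% (13.4 to 14.4) of the 18336 autosomal P12 peaks, in a list of 18630 on all chromosomes. In the whole autosomal P12 list, 15.9% of peaks overlapped a P18 peak and 58.8% overlapped a common H3K27ac region. These shares belong to the rule that selected the sites, and nothing is read from them. Intervals in brackets are exact Clopper-Pearson 95% intervals for shares and order-statistic 95% intervals for medians, and both cover counting error only.

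BRG1 is the ATP-hydrolysing motor of the SWI/SNF (BAF) chromatin remodelling complexes, which slide and evict nucleosomes and open DNA at promoters and enhancers. Acetylation of lysine 27 on histone H3 (H3K27ac) is a mark of active promoters and enhancers. At active elements the mark sits on the nucleosomes, often on both sides of a nucleosome-poor centre where transcription factors bind. In the first wave of mouse spermatogenesis, the testis at P12 holds spermatogonia and cells early in meiotic prophase, and by P18 pachytene spermatocytes are abundant.

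BRG1 was precipitated from spermatogenic cells of wild type CD1 testes, with 2 ChIP and 2 input libraries at P12 and the same numbers at P18. H3K27ac was precipitated at P12 only, from mice labelled as mixed background, with 2 Brg1WT libraries, 2 Brg1cKO libraries and 1 input shared by both genotypes. Brg1cKO is a conditional knockout made with Mvh-cre, a Cre recombinase expressed in germ cells, so other cells of the testis keep the gene. In the authors' classes, a common region is one shared by Brg1WT and Brg1cKO, and gained and lost regions changed in Brg1cKO. The acetylation compared with BRG1 at P18 is therefore that of P12, from mice of another strain background. Each list serves both libraries of a group, so no value below has an error between replicates, and no test of age or genotype was made. Read depth is unknown from region lists. The cell suspensions were not tested against cell type markers, and a site present at both ages may be occupied in the same or in different cells of these mixtures. The loss of BRG1 in Brg1cKO cannot be checked from lists of H3K27ac regions.

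The sites hold most of the peaks in the P18 list, as counted by the overlaps that define the sites. They hold 2597 of the 3020 P18 peaks (86.0%, 84.7 to 87.2), a list not limited to autosomes. They are 87.7% (86.4 to 88.9) of the 2908 autosomal P12 peaks that overlapped a P18 peak. Of all autosomal P12 peaks, 58.8% overlapped a common H3K27ac region. The sites were wider, with a median of 1301 bp against 784 bp for all autosomal P12 peaks. A wide peak meets a region more easily, so nothing is read from the difference between these shares. Another 358 P12 peaks overlapped a P18 peak without touching common H3K27ac. For those 358, the median gap to the nearest common region was 2.53 kb (2.11 to 3.10), and 107 of them (29.9%, 25.2 to 34.9) had one within 1 kb. From the side of acetylation the sites are few, since 4242 of the 170137 common regions (2.49%, 2.42 to 2.57) touched one. These 4242 regions had a median width of 422.5 bp against 271 bp for all common regions. A wider region meets a peak more easily, so this difference follows in part from the rule.

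The rule leaves some sites at its margin. The smallest P18 overlaps were 7 bp at chr12:21422513-21423927, 8 bp at chr5:20560626-20562236, and 12 bp at chr2:38863269-38864347, chr19:16206828-16208457 and chr19:47142282-47142979. In these 5 the whole P18 peak was that narrow. All 5 P18 centres lay in common H3K27ac. Just outside, 5 P12 peaks on H3K27ac missed a P18 peak by 31 to 73 bp, the nearest at chr15:77800778-77801772 and the others at chr13:12350105-12350402, chr4:57968487-57969473, chr17:87872893-87873444 and chr5:121835024-121835641. The smallest contacts with H3K27ac were 1 bp at chr5:135726050-135727364 and 8 bp at chr4:59796151-59796870. The nearest misses were peaks found at both ages that lay 10 bp (chr11:22907441-22908700) and 15 bp (chr9:35075030-35075727) from a common region. One of the strongest BRG1 peaks missed by 39 bp, at chr18:38456332-38457019, with a −log10 q of 15.8 at P12 and 3.38 at P18. Under 10% of the peak was acetylated in 36 of the 2550 sites (1.41%, 0.991 to 1.95).

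The sites were wide and strong P12 peaks. Their median width was 1301 bp (1272 to 1330), the middle 50% ran from 966 to 1812 bp, and the extremes were 262 and 9338 bp. The 8239 P12 peaks that touched common H3K27ac but no P18 peak, called P12-only peaks here, had a median width of 845 bp (828 to 860). The strength of a peak is the −log10 q value that the authors' peak caller gave it, used only to order peaks within a list. The median was 7.11 (6.99 to 7.21) in the sites, 4.25 (4.18 to 4.30) in P12-only peaks and 5.71 (5.475 to 6.0) in the 358 peaks found at both ages off H3K27ac. Since a strong or wide P12 peak is more easily met by a second list, these values describe the selection and are not a test of it. Of the P12 peaks on H3K27ac, 0.0927% of the weakest 10% were found at P18, against 60.8% of the strongest 10%.

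Most sites held a P18 peak that was smaller and sat well inside the P12 peak. A single P18 peak was present in 2504 sites, 2 in 45 sites and 3 in 1 site, at chr10:41993597-41998493. Among those with 2 were chr1:13362601-13364943, chr1:158868935-158870339, chr2:84554661-84556410 and chr2:92023069-92025881, first in genome order. Where there were several, the strongest is the one described. Its median width was 458 bp (438 to 476), and the P18 peaks of a site together covered a median of 36.9% (35.9 to 38.3) of the P12 peak. The P18 peak lay wholly inside the P12 peak in 2266 sites (88.9%, 87.6 to 90.1), and was wider than it in 55. Peaks are shorter throughout the P18 list, where 3020 cover 1.63 Mb, while the 18630 P12 peaks cover 17.9 Mb. The rule also favours wide P12 peaks, so no change with age is read from these sizes. The distance between the centres had a median of 149.75 bp (143 to 163). In 2079 sites (81.5%, 79.97 to 83.02) the P18 centre fell in the middle 50% of the P12 peak. The 358 sites off H3K27ac had narrower P18 peaks, with a median of 333 bp (298 to 365), which covered a like part of the P12 peak (36.7%, 33.4 to 40.9).

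Sites that ranked high at P12 were only loosely those that ranked high at P18. Over the 2550 sites, the Spearman correlation of P12 and P18 strength was 0.25 and Pearson's r was 0.21. Both are descriptions over sites that share the same libraries, and no p is given. The 10 strongest sites at P12 and the 10 strongest at P18 had none in common. The top 50 of each shared 2 sites. Unrelated orders of 2550 sites would also share few or none in lists this short, so these 2 counts say little. The top 255, which are 10% of the sites, shared 40 (15.7%), where unrelated orders would share about 10%. Values of the ages are not set against each other, since the lists come from different libraries of unknown depth.

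The strongest site at P12 lay at chr8:77517585-77518235, with a −log10 q of 18.2, and was 192nd in the P18 order. The next, at chr4:56959400-56960466 (17.2), was 1687th at P18, and chr16:56716679-56717542 (17.0) was 1191st. The pair on chromosome 18, chr18:75178356-75179167 (16.2) and chr18:35721922-35722777 (15.5), were 188th and 314th. The site chr10:57909199-57910256 (16.1) was 563rd. The last 4 of the strongest 10 were chr1:155333953-155334774 (15.1, 1649th at P18), chr6:52663777-52664480 (15.1, 914th), chr10:42481018-42482426 (14.6, 1081st) and chr9:54711518-54712190 (14.5, 137th). Ranks at P18 thus ran from 137th to 1687th of 2550. These 10 sites were narrow for the set, with a median width of 839 bp, and 8 of them touched a single common region. Their H3K27ac cover ran from 35.5% at chr1:155333953-155334774 to 100% at chr6:52663777-52664480.

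The strongest site at P18 was chr9:63224993-63225719, with a −log10 q of 7.46 at P18. Its P12 value of 6.50 put it 1569th at P12, and 95.5% of it was acetylated. The second, chr4:108952804-108953722 (6.197), was 413th at P12, and the third, chr4:46662683-46663600 (6.06), was 2483rd, near the bottom of the P12 order. The fourth, chr10:114687976-114688612 (6.01), was 25th, and was the only one of the 10 within the first 50 at P12. The others were chr16:20498679-20499343 (5.90, 1476th at P12), chr5:108561003-108562222 (5.58, 1556th), chr3:68930203-68931479 (5.33, 686th), chr2:126500231-126502199 (5.25, 81st), chr13:81024598-81025731 (5.25, 342nd) and chr4:129417648-129420620 (5.23, 952nd). In 7 of these 10 the P18 centre lay in common H3K27ac, the same number as among the strongest 10 at P12.

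Stronger sites carried more acetylation and had a larger part covered by P18 peaks. The sites were split by P12 strength into 5 groups of 510. From the weakest to the strongest group, the share with the P12 centre in common H3K27ac rose from 54.3% (49.9 to 58.7) to 74.1% (70.1 to 77.9), and the middle groups lay in order between them. The median acetylated share of the peak was 45.1% in the weakest group and 57.9% in the strongest. The part covered by P18 peaks was 28.9% and 45.1%. The median width of the P12 peak did not follow this order, at 1277 bp in the weakest and 1252 bp in the strongest group. The median P18 strength was 2.16 and 2.68. Between P12 strength and width the Spearman correlation was −0.03 over the 2550 sites, between P12 width and P18 width it was 0.37, and between P12 strength and acetylated share it was 0.20.

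**Figure D1:**
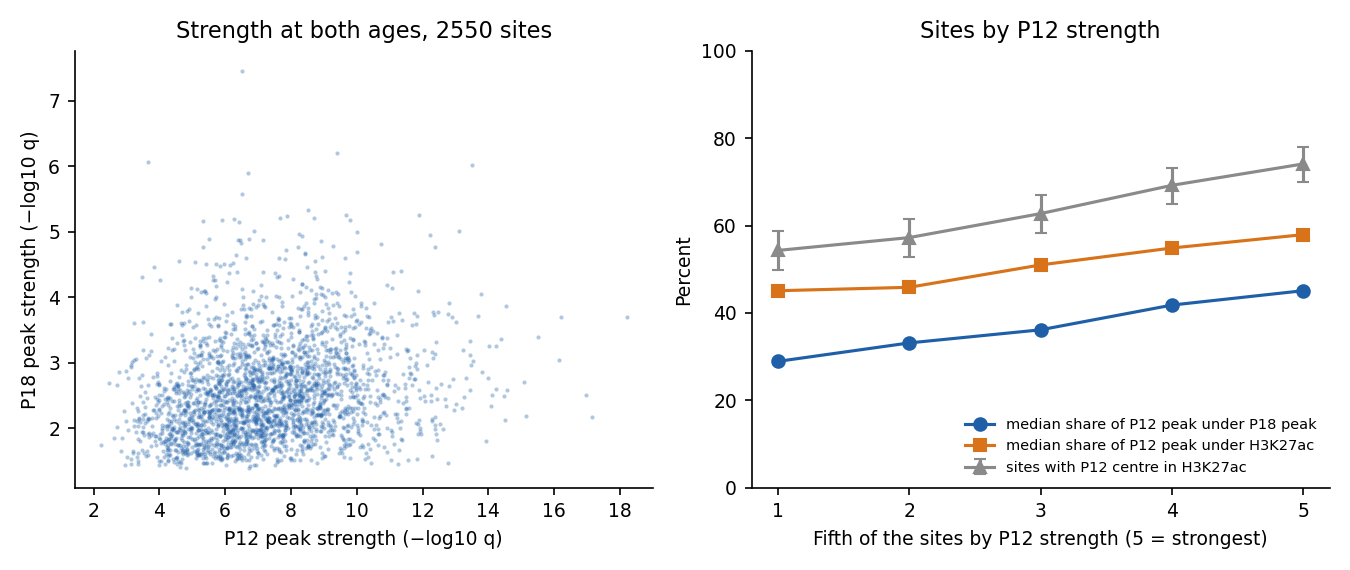
Left, each point is one of the 2550 sites, with the −log10 q of its P12 peak on the x axis and of its strongest P18 peak on the y axis. The cloud is broad (Spearman correlation 0.25). Right, the sites in 5 groups of 510 by P12 strength, with the median percent of the P12 peak under P18 peaks (circles) and under common H3K27ac (squares), and the percent of sites with the P12 centre in common H3K27ac (triangles, bars are exact 95% intervals). The triangles go from 54.3% to 74.1%.

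H3K27ac lay on parts of each site rather than over the whole of it. A median of 51.2% (50.1 to 52.5) of the P12 peak was covered, or 641 bp (624 to 658). The whole peak was covered in 52 sites (2.04%, 1.53 to 2.67), one of them chr6:52663777-52664480 above. A single common region touched 1341 sites (52.6%), 2 touched 871 (34.2%), 3 touched 244 (9.57%) and at least 4 touched 94 (3.69%). In 1301 sites (51.0%, 49.1 to 53.0) the acetylation ended inside both edges of the BRG1 peak. In 1006 sites (39.5%, 37.5 to 41.4) it ran past 1 edge, and in 243 (9.53%, 8.42 to 10.7) past both. Wider sites tended to touch more regions (Spearman correlation 0.55 over the 2550 sites). The widest, chr11:74978312-74987649, spanned 9338 bp with 6 common regions and 31.6% cover. The sites chr11:98797398-98804885 (7488 bp, 63.6% cover) and chr12:81210571-81217282 (6712 bp, 39.8% cover) held 8 regions each, the highest number. The sites chr6:124865627-124871363 and chr8:73219323-73225549 held 7 each. The remaining pair of the 5 widest was chr11:4957658-4965677, with 8020 bp and 7 regions, and chr8:86721189-86728256, with 7068 bp and 5 regions. P12 strength was below the median of the sites in all 5 of the widest, at 4.37 to 6.68, and 2 of them had the P18 centre in common H3K27ac.

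One site lay in an exceptionally long acetylated region. The peak chr6:47600431-47601622 was inside the common region chr6:47596490-47636110, which is 39.6 kb wide. The next widest common regions at sites were 3.19 kb (chr13:55311056-55314249) and 3.02 kb (chr7:7250605-7253628). The BRG1 peak there had a −log10 q of 4.13 at P12 and 2.37 at P18, both below the medians of the sites. This site was picked once its values were known.

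In the 871 sites touched by 2 common regions, P18 centres lay about as often per length in the gap as in either region. The gap had a median of 272 bp (248 to 290), with the middle 50% from 158 to 462 bp. The P18 centre lay in the left region in 275 sites (31.6%), in the right region in 269 (30.9%) and in the gap in 251 (28.8%). In the other 76 (8.73%) it lay outside both. Per kb of each part inside the P12 peaks, there were 0.763 P18 centres in the gap, 0.745 in the left region and 0.741 in the right region, against 0.210 in the rest of the peak. These are descriptions, with no test. The rest of the peak is its outer ends, while P18 centres gather in the middle, so these values mix position with acetylation. Left and right follow the chromosome, and the direction of transcription was not used.

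Summed over the sites, the P12 peak length under P18 peaks was more acetylated than the rest, though this did not hold at each site. Of all P12 peak length under a P18 peak, 61.9% lay in common H3K27ac, against 41.9% of the length outside P18 peaks. Of the P18 peaks described, 1 per site, 2347 (92.0%, 90.9 to 93.1) touched common H3K27ac. The rule asked this of the P12 peak, and most P18 peaks lay wholly inside it, so a high share follows in part from the rule. The P18 centre itself lay in common H3K27ac in 1660 sites (65.1%, 63.2 to 66.9), and the P12 centre in 1620 (63.5%, 61.6 to 65.4). Away from the P18 centre the share fell to 34.7% at 0.5 kb on the left and 34.8% on the right, 18.4% and 16.8% at 1 kb, and 8.12% and 7.88% at 2 kb. It was 5.80% and 5.65% at 5 kb.

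**Figure D2:**
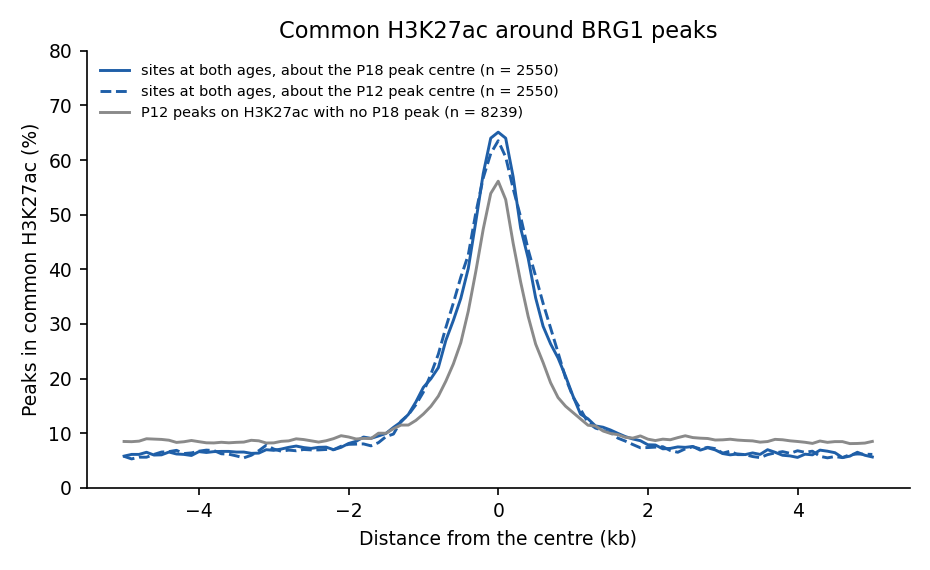
Percent of peaks with a common H3K27ac region at each distance (kb, left and right along the chromosome) from the P18 centre (solid blue) and the P12 centre (dashed blue) of the 2550 sites, and from the P12 centre of the 8239 P12 peaks on H3K27ac with no P18 peak (grey). The central values are 65.1%, 63.5% and 56.1%, and beyond about 2 kb the grey line lies above both blue lines.

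Acetylation and P18 peaks both gather at the middle of a P12 peak, so the P18 centre was also compared with a point equally far from the P12 centre on the opposite side of the same P12 peak. This comparison was added after the data had been seen. In 1227 sites the P18 centre was off the P12 centre by 25 to 100% of the distance from centre to edge. There, 63.7% (60.9 to 66.3) of P18 centres lay in common H3K27ac, against 43.4% (40.6 to 46.3) of the mirrored points, a difference of 20.2 percentage points. In 438 sites only the P18 centre was acetylated, in 190 only the mirrored point, in 343 both and in 256 neither. The P18 centre had the higher share on 19 of 19 chromosomes. Where the P18 centre lay within 10% of that distance, the pair of points nearly coincides, and the shares were 68.8% and 67.1% over 583 sites. At an offset of 10 to 25% they were still close, at 66.2% and 63.3% over 714 sites. At an offset of 50 to 100% they were 60.4% and 40.4% over 445 sites.

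The difference had the same direction in every group of sites examined. With 1 common region it was 65.2% against 42.4% (621 sites), with 2 it was 62.7% against 46.7% (437 sites), and with 3 or more it was 60.4% against 39.1% (169 sites). With P18 strength in the upper 50% of the sites it was 68.8% against 48.2%, and in the lower 50% it was 58.9% against 39.1%. For P12 strength the shares were 70.3% against 48.2% in the upper and 58.1% against 39.5% in the lower 50%. Among the 1026 sites whose P18 peak lay wholly inside the P12 peak, they were 67.1% against 40.3%. With the P18 centre on the left of the P12 centre they were 64.4% against 43.3%, and on the right 62.9% against 43.6%. On single chromosomes the order was not always kept in the smaller groups: with 2 common regions, the mirrored point had the higher share on 2 chromosomes and the P18 centre on 16. The points of a pair share one peak and one acetylation list, so the intervals are not a test of the difference.

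**Figure D3:**
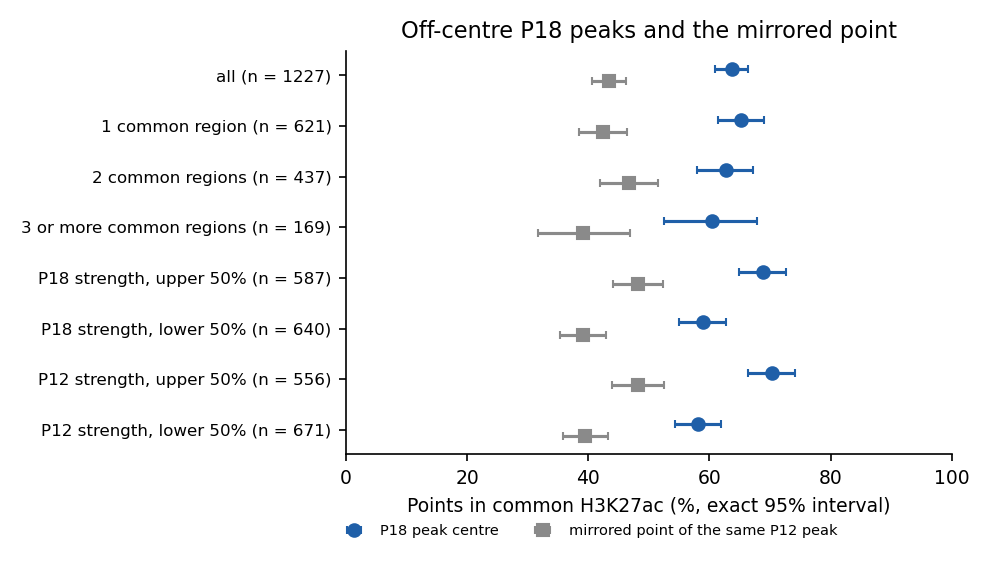
Percent of points in common H3K27ac (x axis) at the P18 centre (circles) and at the mirrored point of the same P12 peak (squares), with exact 95% intervals, for the 1227 sites with an off-centre P18 peak and for groups of them by number of common regions and by strength. The circle lies to the right of the square in each row, by 20.2 percentage points over all 1227 sites.

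Compared with P12-only peaks on H3K27ac, acetylation at the centre of the sites was more frequent over all peaks but close at like strength. The P12 centre lay in common H3K27ac in 63.5% of the sites and in 56.1% (55.0 to 57.2) of P12-only peaks. When P12-only peaks were weighted over 10 bins of P12 strength as the sites are, their share was 63.2%, and the sites had the higher share in 5 of 10 bins. In the strongest bin it was 72.9% (69.3 to 76.2) of 656 sites and 73.8% (69.3 to 77.9) of 423 P12-only peaks. The median acetylated share of the peak was 51.2% in the sites and 52.5% in P12-only peaks at the same strengths. Width did not come together in this way. The median width was 949 bp in P12-only peaks at the strengths of the sites, against 1301 bp, with the sites wider in 9 of 10 bins. The mean number of common regions touching a peak was 1.66 against 1.37 at the same strengths, again higher in 9 of 10 bins. The rule favours wide peaks at any strength, and a wide peak touches more regions.

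Over the 2 kb on each side of the P12 centre, the sites had a median of 927.5 bp of common H3K27ac and P12-only peaks 718 bp, a difference of 209.5 bp. Within bins of strength the difference was 193.5 bp. With both strength and width in bins it was 107 bp, and the sites had the higher median in 17 of 24 filled bins.

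Beyond the edges of the peak the order was the opposite. In the first 0.5 kb outside, common H3K27ac covered 154 bp per kb at the sites and 195 bp per kb at P12-only peaks. From 2 to 5 kb the values were 63.6 and 85.7 bp per kb, and from 10 to 50 kb they were 54.9 and 70.1 bp per kb. In each of the 6 distance ranges the sites had the lower value on at least 18 of 19 chromosomes. The values were closer at like strength. P12-only peaks weighted to the strengths of the sites had 159, 62.4 and 56.4 bp per kb in the same 3 ranges, and the sites were higher in 5, 5 and 4 of 10 bins. From 5 to 10 kb the sites had 58.5 bp per kb against 59.5, and were higher in 2 of 10 bins. With both strength and width in bins, P12-only peaks had 153 bp per kb in the first 0.5 kb, where the sites were higher in 13 of 24 bins. From 0.5 to 1 kb the sites had 82.3 bp per kb against 82.0, and from 1 to 2 kb 72.3 against 67.8. They were higher in 11 and 12 of 24 bins there. From 2 kb outward the sites had the lower value, and they were higher in fewer bins than nearer the edge. P12-only peaks had 66.5 bp per kb from 2 to 5 kb, 64.1 from 5 to 10 kb and 59.3 from 10 to 50 kb. The sites were higher in 6, 7 and 5 of 24 bins. Weighted to the widths of the sites instead, P12-only peaks had 165 bp per kb in the first 0.5 kb. They had 84.9 from 2 to 5 kb and 71.9 from 10 to 50 kb. In these 3 ranges the sites were higher in 1, 0 and 0 of 10 bins.

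**Figure D4:**
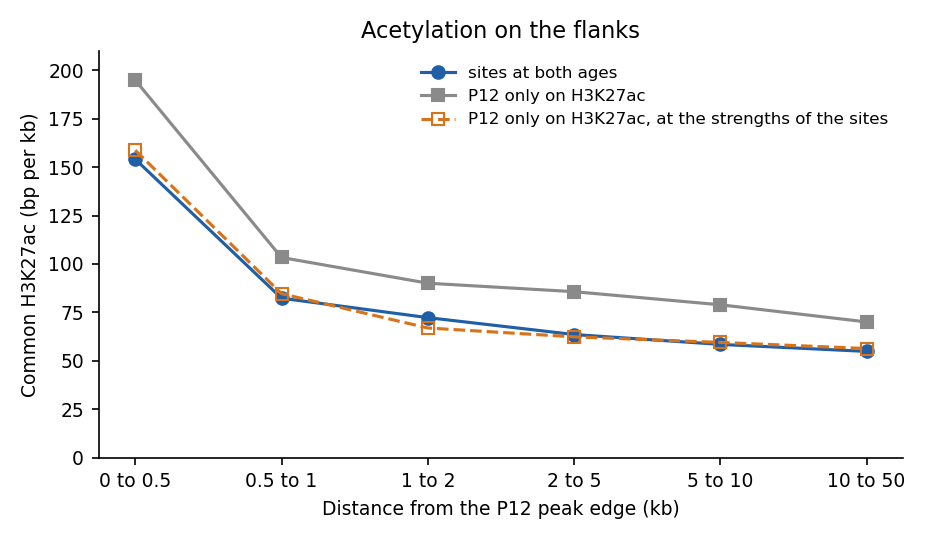
Common H3K27ac length in bp per kb (y axis) by distance outside the edge of the P12 peak (x axis, 6 ranges in kb) for the 2550 sites (circles), the P12 peaks on H3K27ac with no P18 peak (filled squares) and the same peaks weighted to the P12 strengths of the sites (open squares). The sites run from 154 to 54.9 bp per kb, below the filled squares throughout and near the open ones.

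The sites were also spaced farther from other BRG1 peaks. The median gap to the next P12 peak of any kind was 28.8 kb (27.05 to 30.52), against 14.1 kb (13.5 to 14.8) for P12-only peaks on H3K27ac. A P12 peak lay within 10 kb of 25.2% (23.5 to 26.9) of the sites and 42.2% (41.1 to 43.3) of P12-only peaks. At the strengths of the sites the P12-only median was 24.98 kb, and the sites had the larger gap in 6 of 10 bins.

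Few neighbouring sites lay within 10 kb of each other. No reference spacing for this number of regions was made, so the gaps are not read as a trait of the sites. The median gap from one site to the next was 317 kb (288 to 341), and 42 of 2531 neighbouring pairs (1.66%, 1.20 to 2.24) were at most 10 kb apart. Joined at that distance, 2469 sites stood alone and 37 pairs formed, with a group of 3 at chr7:29156409-29168145. The largest group held 4 sites in 21.4 kb, at chr11:69793262-69814627, with P12 strengths of 3.57 to 7.36. The tightest pair spanned 3.49 kb at chr6:72294569-72298056. The pair chr15:79517666-79522608, 4.94 kb long, joined 2 strong sites (11.1 and 11.5). Some P12 regions carry the name of another and the same −log10 q: 545 in the list, under 266 names, of which 42 are sites. In 3 cases both regions of a name are sites, so these pairs do not have independent strengths.

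The sites were found on each of the 19 autosomes, as a larger part of the P12 list on some than on others. They made up 18.3% (15.6 to 21.2) of the P12 peaks on chromosome 3, 18.1% (15.0 to 21.7) on chromosome 16 and 17.9% (15.5 to 20.4) on chromosome 1. The lowest shares were 10.3% (8.79 to 11.9) on chromosome 7 and 10.4% (8.41 to 12.6) on chromosome 15. Among P12 peaks that touched common H3K27ac, the share found at P18 went from 17.4% on chromosome 7 and 18% on chromosome 15 to 30.5% on chromosomes 1 and 3 and 31.0% on chromosome 12. Chromosomes with more P12 peaks tended to have a lower share, with a Spearman correlation of −0.55 over 19 chromosomes, given as a description. The median strength of all P12 peaks differed as well: it was 3.70 on chromosome 7 and 3.81 on chromosome 15, against 4.48 on chromosome 3 and 4.38 on chromosome 12. The part of strength in the order of the chromosomes was not tested.

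**Figure D5:**
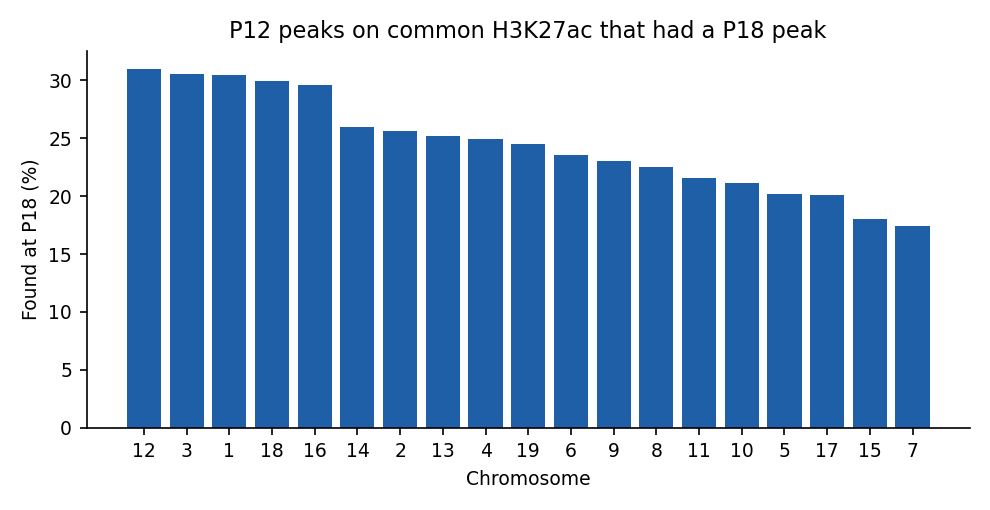
Percent of P12 BRG1 peaks on common H3K27ac that also overlapped a P18 peak (y axis), for each autosome in order of the share. Chromosome 12 is highest at 31.0% and chromosome 7 lowest at 17.4%.

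Acetylation that changed in Brg1cKO was rare around these sites, as it was around all BRG1 peaks. The lists are themselves short, with 785 lost and 983 gained regions against 170137 common ones. The rule asked each site for a common region of the same comparison, so these counts are not free of the rule. A lost H3K27ac region lay within 1 kb of 12 of the 2550 sites (0.471%, 0.243 to 0.821), where 0.273% of all autosomal P12 peaks had one. A gained region lay within 1 kb of 2 sites (0.0784%, 0.00950 to 0.283), where 0.169% of all autosomal P12 peaks had one. Both background shares are inside the intervals, so no difference is shown at these counts. P12-only peaks on H3K27ac had 22 of 8239 with a lost region (0.267%, 0.167 to 0.404) and 13 with a gained region (0.158%, 0.0840 to 0.270). Within 5 kb the counts were 28 sites for lost (1.10%, 0.731 to 1.58, against 0.829% of all autosomal P12 peaks) and 14 for gained (0.549%, 0.300 to 0.919, against 0.731%). Of the 14 sites with a changed region within 1 kb, 12 had a lost one (85.7%, 57.2 to 98.2), against 50 of 81 P12 peaks counted in the same way (61.7%, 50.3 to 72.3). These intervals overlap, but the 81 include the 14 sites, so the overlap decides nothing.

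The changed regions next to sites were short. The 12 lost regions were 29 to 1213 bp wide, with a median of 127 bp, and lay on 8 chromosomes. In 3 of the 2550 sites (0.118%, 0.0243 to 0.343) a lost region overlapped the site, against 8 of the 18336 autosomal P12 peaks (0.0436%, 0.0188 to 0.0860) and 3 of the 8239 P12-only peaks (0.0364%, 0.00751 to 0.106). These intervals overlap, and the 8 autosomal P12 peaks include the 3 sites. The longest, chr3:75360501-75361713, overlapped the P12 peak chr3:75360214-75361156. Its P18 peak covered 80.5% of the P12 peak, while common H3K27ac covered 28.4%. At chr11:69613626-69618810, a site of 5185 bp with 4 common regions, the lost region chr11:69615836-69616035 lay inside the BRG1 peak. At chr1:88336329-88341109, a site of 4781 bp with 3 common regions, the lost region chr1:88336162-88336356 crossed its left edge. None of the 3 had the P18 centre in common H3K27ac. At chr3:75360214-75361156 the P18 peak, chr3:75360398-75361315, had its centre inside the lost region. Lost regions are listed apart from common ones, so the 28.4% leaves out acetylation that changed in Brg1cKO. The 3 P18 strengths, 1.59 to 2.21, lay below the median of 2.45 for all sites. Of the sites near a lost region, the strongest at P12 was chr1:43990630-43991439 (11.8), 13 bp from a lost region of 109 bp.

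No gained region overlapped a site. A count of 0 in 2550 allows a share of up to 0.118% at 3 counts, or 0.145% by the exact interval, and 13 of the 18336 autosomal P12 peaks (0.0709%, 0.0378 to 0.121) overlapped one. The nearest was 134 bp from chr1:13362601-13364943, and the other lay 938 bp from chr15:96114821-96119207. Each of these sites held 2 P18 peaks, which 45 of the 2550 sites did. Both were wide, at 2343 and 4387 bp against a median of 1301 bp for the sites, and nothing is read from 2 sites.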

How the data were processed

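Per the labels, the libraries are MNase-digested ChIP-seq and input of spermatogenic cells, sieved at 40 micron and cross-linked for 30 min at 4 °C with 0.3% formaldehyde. Of 17 libraries, those for BRG1 and H3K27ac gave the 5 lists used. The submitters' processing notes name build mm9, Bowtie, Bowtie2, SAMtools, Picard, deepTools 2.5.2 and MACS2, with no roles. Each deposited list serves both libraries of a group, and the sources used here do not say how the authors merged or filtered replicates. The authors' −log10 q value ranked BRG1 peaks. The deposited score columns were not used. Depth is unknown.

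Overlap meant at least 1 bp, and coordinates count from 1. Python 3.11.15, numpy 2.4.6, pandas 2.3.3 and scipy 1.17.1 were used. Overlaps were tested on simulated regions and with bedtools 2.31.1. Weighted comparisons used 10 bins of P12 strength or width with about equal numbers of peaks, or 5 by 5 bins of both. Members and lists were chosen with earlier results of these data known. Regions are not replicates, so no test was made. The regions named were the 10 strongest at each age, the 5 widest, the 5 touching the most common regions, the 5 with the most P18 peaks, those overlapping lost or gained regions, and the 5 nearest each side of the P18 limit. Those at the H3K27ac limit, near lost or gained regions, in clusters or in wide common regions were added after seeing values. Gene positions, sequences and H2AK119ub1 were not analysed here.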

Additional observations from a re-analysis of the deposited data

How the results depend on the processing

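Of 31 values of 10 results under alternatives, 20 lay inside their interval or, for counts, within 1.5 times of the value given above, and 11 moved. With P18 peaks covering at least 50% of the P12 peak, 815 sites remained in number. Where peaks of both ages needed a −log10 q of 3 or more, the number was 600, 67.2% had the P18 centre in common H3K27ac, the median covered share was 53.2% and the median gap to the next site was 1988 kb. Counts near lost regions were 28 at 5 kb and 3 by overlap, and near gained regions 14 and 0. The difference in acetylated length from P12-only peaks was 113.5 bp with a window of 5 kb and 107 bp in 5 by 5 bins of strength and width. The cause was not tested, other than that fewer regions meet a stricter rule. The difference between P18 centres and mirrored points was 18.2 to 23.0 percentage points under 4 alternatives, which were chosen after seeing the data.

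No paired analysis was possible because each list joins both libraries of a group, and leaving out a replicate was not possible for the same reason. The planned share at gene start sites was not run, since the annotation at hand is on another build. Read depths are not known, so absence from the P18 list does not show absence of BRG1.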
